A study of Homo sapiens with 6 samples.

Results

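The genes described here are 9 genes that put brakes on the cell cycle or belong to the p53 response, chosen by name: the CDK inhibitors CDKN1A, CDKN1B, CDKN1C, CDKN2B and CDKN2C, the stress sensors GADD45A and GADD45B, and the p53 targets MDM2 and SESN1. They are 9 of the 46427 genes in the table, and 8 of them had enough counts to be tested among 16966 genes. RNA was sequenced from MDA-MB-231 cells, a line of invasive human breast cancer cells, after treatment with control-siRNA (3 libraries) or with TAZ-siRNA (3 libraries), a pool of siRNAs against WWTR1, which encodes the transcriptional co-activator TAZ. Both groups were grown and transfected in the same way, the knockdown is transient, and all libraries come from this single line. The comparison shows how the mRNA of these genes differed when TAZ was reduced. The libraries of a group came from separate cell preparations of this line, and the p-values measure the spread between these preparations.

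CDK inhibitors stop the kinases that carry a cell through the cycle. The CIP/KIP proteins p21, p27 and p57 (CDKN1A, CDKN1B, CDKN1C) bind complexes of CDKs with cyclins, whereas the INK4 proteins (CDKN2A to CDKN2D) hold CDK4 and CDK6 and so keep the retinoblastoma protein active. GADD45 proteins bind the kinase MAP3K4 and the CDK1-cyclin B1 complex under stress, MDM2 marks p53 for degradation, and sestrins restrain the growth kinase mTORC1 through the GATOR complexes. CDKN1A, GADD45A, MDM2 and SESN1 are textbook targets of p53, and GADD45B is known for its response to TGF-β and NF-κB. These roles come from other cells. The activity of p53 was not measured here, and whether p53 acts on these genes in this line was not tested.

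The 6 libraries held 48307548 to 71749634 counts each, and 3 counts, taken as the limit of detection, corresponded to 0.0411 to 0.0618 CPM, the count relative to the TMM-normalized library total. Such limits cover counting error only. WWTR1 itself stood at 12828, 11808 and 9228 counts with control-siRNA and at 1263, 840 and 843 with TAZ-siRNA, so that 8.64% of the control CPM remained. TAZ library 3 lay apart from the others, with a median absolute deviation from its group of 0.102 on the log2 scale against 0.0457 to 0.0791 in the other libraries, and results that rest on it are also given without it. All 7 markers of MDA-MB-231 cells were measured and summed to 7467 to 7801 CPM in the controls against 7048 to 7321 CPM after TAZ knockdown. VIM was the largest part of this sum, with means of 3574 against 3400 CPM. Within it CAV1 (528 against 348 CPM) and EGFR (626 against 542 CPM) fell most. Only FN1 had a higher mean after TAZ knockdown (941 against 1045 CPM). Summed markers of luminal breast cells were 80.5 to 81.8 CPM against 91.3 to 101 CPM, those of fibroblasts 20.0 to 21.8 against 27.5 to 28.4 CPM, those of endothelial cells 6.32 to 7.15 against 6.61 to 9.39 CPM, and those of leukocytes, all of it CD68, 72.2 to 79.8 against 51.8 to 61.2 CPM. KRT19 made up most of the luminal sum, with means of 63.4 against 81.7 CPM. GATA3 went the other way, with means of 8.67 against 6.23 CPM. The 7 tested luminal markers had a median log2 fold change of -0.17. Nearly all of the fibroblast sum was PDGFRB, with means of 13.5 against 18.2 CPM, and COL1A1, with 7.21 against 9.69 CPM. The fibroblast marker DCN had 0 counts in every library, COL1A2 at most 2 and LUM at most 4. The part of these marker shifts in the results was not tested. In bulk RNA, fewer cells with a transcript and less of it per cell cannot be told apart.

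In the TAZ-siRNA cells, the mRNA of CDKN2C and SESN1 rose and that of GADD45A fell. CDKN2C was 1.24 times and SESN1 1.37 times the control level, while GADD45A dropped to 0.648 times it. CDKN1A, CDKN1B, CDKN1C, GADD45B and MDM2 did not pass the test, and CDKN2B had no count in any library. Calls were made at an adjusted p under 0.05 in edgeR's quasi-likelihood test, and 3 of the 8 tested genes (37.5%) were called, 2 higher and 1 lower, against 22.1% of all tested genes (11.9% higher and 10.2% lower). The 2 groups of libraries did not overlap for 4 of the 8 genes, 3 higher and 1 lower, against 39.6% of all genes (20% higher and 19.6% lower). With 8 genes, no difference from these shares is claimed. Their median log2 fold change was 0.20, with -0.0054 over all genes tested.

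**Figure D1:**
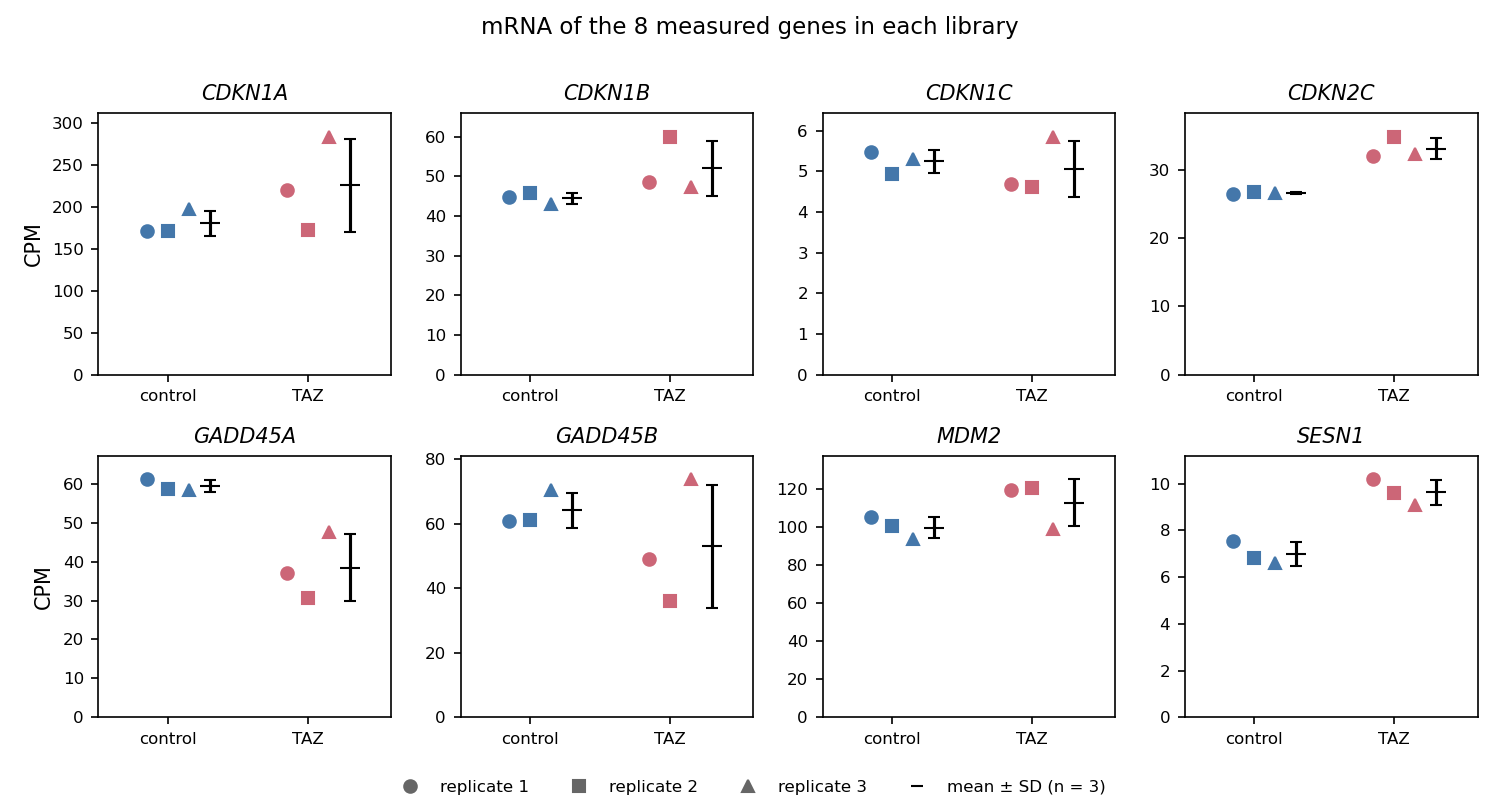
mRNA of the 8 detected genes in CPM on linear axes from 0, with each library as a point (control-siRNA in blue, TAZ-siRNA in red, the symbol giving the replicate) and the mean ± SD of 3 libraries as a bar. CDKN2C and SESN1 are higher and GADD45A is lower in every TAZ-siRNA library, whereas CDKN1A and GADD45B spread from 173 to 284 CPM and from 36.2 to 73.7 CPM within the TAZ-siRNA group.

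The order of the genes by level was the same in both groups on the TPM scale, which accounts for transcript length. With control-siRNA, CDKN1A was the most abundant at 185 ± 10.3 TPM (SD, n = 3), followed by GADD45B (101 ± 6.34) and GADD45A (96.2 ± 4.19), whose libraries overlapped. CDKN1B (40.1 ± 2.14) and CDKN2C (38.4 ± 1.09) also overlapped, and below them came MDM2 (28.4 ± 2.25), CDKN1C (6.35 ± 0.293), SESN1 (3.34 ± 0.424) and CDKN2B at 0. With TAZ-siRNA the levels were 239 ± 49.5 TPM for CDKN1A, 85.7 ± 27.0 for GADD45B, 64.6 ± 12.1 for GADD45A, 48.9 ± 7.84 for CDKN1B, 47.1 ± 3.63 for CDKN2C, 33.0 ± 4.98 for MDM2, 6.16 ± 0.549 for CDKN1C and 4.29 ± 0.420 for SESN1. In this group the libraries of GADD45A also overlapped those of CDKN1B, so that from GADD45B down to CDKN2C no neighbour was clearly separated from the next.

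Among the CIP/KIP genes, CDKN1A (chr6:36676463-36687332, GRCh38, plus strand) encodes p21, the main effector of p53-dependent arrest. It had 172, 172 and 198 CPM in the control libraries and 221, 173 and 284 CPM in the TAZ-siRNA libraries. TAZ library 2 lay at the control level and TAZ library 3 well above it, so the groups overlapped. The log2 fold change was 0.33 ± 0.18 (SE, 95% interval -0.12 to 0.77), with an adjusted p of 0.259 by edgeR. The value hung on single libraries: without TAZ library 2 it was 0.49 with an adjusted p of 0.0149, and without TAZ library 3 it was 0.13 with an adjusted p of 0.536. The transcript NM_000389 carried 86.5 to 89.1% of the gene's TPM in all 6 libraries, and thus the main p21 transcript dominated in both groups.

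CDKN1B (chr12:12717368-12722369, plus strand) encodes p27, which binds CDK2 in resting cells and is removed through the ubiquitin ligase subunit SKP2. It had 44.7, 45.8 and 43.0 CPM with control-siRNA and 48.7, 60.1 and 47.4 CPM with TAZ-siRNA. All TAZ-siRNA libraries lay above the controls, but TAZ library 2 carried most of the difference. The log2 fold change of 0.23 ± 0.084 (95% interval 0.039 to 0.41) gave an adjusted p of 0.0806 by edgeR, which did not pass. It passed without TAZ library 3 (0.29, adjusted p = 0.0104) and with DESeq2 (adjusted p = 0.0456). CDKN1C (chr11:2883218-2885775), the imprinted gene of p57, had 5.47, 4.93 and 5.31 CPM against 4.68, 4.62 and 5.85 CPM. The groups overlapped, and the log2 fold change of -0.05 (95% interval -0.32 to 0.21, adjusted p = 0.787 by edgeR) limits any change to about that range.

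The balance of p21 to p27 mRNA was taken within each library, so that it does not depend on scaling between libraries. The log2 ratio of CDKN1A to CDKN1B counts was 1.94, 1.91 and 2.20 with control-siRNA and 2.18, 1.53 and 2.58 with TAZ-siRNA. The TAZ-siRNA libraries spread over a wider range than the controls and enclosed them. The means differed by 0.079, with a p of 0.9 in a 2-sided exact permutation test, which cannot go below 0.1 with 3 against 3. Without TAZ library 3 the difference was -0.16.

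Among the INK4 genes, CDKN2C (chr1:50968695-50974634, plus strand) encodes p18, an inhibitor of CDK4 and CDK6. It had 26.5, 26.8 and 26.7 CPM with control-siRNA and 32.1, 35.0 and 32.4 CPM with TAZ-siRNA. The control libraries were nearly equal and every TAZ-siRNA library was clearly above them. The rise of 0.31 ± 0.057 on the log2 scale (95% interval 0.19 to 0.44) had an adjusted p of 0.00363 by edgeR. It was called in all 13 alternative fits, including the 6 that left out a library, in which it ranged from 0.28 to 0.34.

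The 2 deposited CDKN2C transcripts start at different places. NM_001262, from the upstream start, had 17.7, 18.7 and 17.8 TPM against 24.9, 28.0 and 24.2 TPM. NM_078626, from the start farther downstream, had 21.7, 19.9 and 19.4 TPM against 22.8, 22.3 and 18.9 TPM. The groups were separate for the upstream transcript and overlapped for the downstream one. The share of the gene's TPM from the upstream start was 44.9 to 48.4% in the controls and 52.2 to 56.2% after TAZ knockdown. Estimates for single transcripts divide shared reads and are given as a description only.

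TAZ does not bind DNA itself but acts through TEAD factors, for which the letters GGAATG are the usual core. Promoter windows from RefSeq (GRCh38.p14, 250 bases before to 50 after a start) were given for 7 of the 9 genes, CDKN1A, CDKN1B, CDKN2B, CDKN2C, GADD45B, MDM2 and SESN1, in 14 windows. GGAATG on either strand occurred in 4 of these windows, belonging to CDKN2C, SESN1 and CDKN2B, and in 14.0% of all 35116 windows. The AP-1 letters TGANTCA, on either strand, occurred only in 2 overlapping windows of MDM2's start in the first intron, and in 7.71% of all windows. A full match to the p53 site was found in 0 of the 14 windows and in 0.0171% of all. Only 6 of all 35116 windows had such a full match, so its absence does not show that these genes lack a p53 site. A match is a description of letters and does not show binding. The matches in the genes that rose, and the one in MDM2, are shown from 5′ to 3′ on the strand of the gene, with the matched letters in capitals, CATTCC being GGAATG on the opposite strand. The stretches lie at chr1:50968566-50968595 (match 128 bases before the upstream start), chr1:50969995-50970194 (185 bases before the downstream start), chr6:109009603-109009802 on the minus strand (223 bases before an internal start) and chr12:68808767-68808966 (118 bases before the start in the first intron).
CDKN2C upstream start: gagcgggaggcgGGAATGagggcgcgggac
CDKN2C downstream start: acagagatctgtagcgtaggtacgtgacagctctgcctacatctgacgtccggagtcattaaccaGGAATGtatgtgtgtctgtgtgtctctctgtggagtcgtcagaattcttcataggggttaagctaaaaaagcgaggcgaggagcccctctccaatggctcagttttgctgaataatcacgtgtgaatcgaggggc
SESN1 internal start: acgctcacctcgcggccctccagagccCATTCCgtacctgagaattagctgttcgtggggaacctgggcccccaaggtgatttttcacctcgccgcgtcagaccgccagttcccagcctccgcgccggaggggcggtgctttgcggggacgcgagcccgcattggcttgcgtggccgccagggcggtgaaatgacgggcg
MDM2 start in the first intron: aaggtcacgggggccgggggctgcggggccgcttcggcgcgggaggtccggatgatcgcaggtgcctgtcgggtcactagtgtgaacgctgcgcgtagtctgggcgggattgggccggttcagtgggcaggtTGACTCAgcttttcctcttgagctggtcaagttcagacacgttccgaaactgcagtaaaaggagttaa
Both starts of CDKN2C had a match, and the relation of the matched letters to the transcript levels was not tested.

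CDKN2B (chr9:22002903-22009313, minus strand), which encodes p15 and lies beside CDKN2A, had 0 counts in all 6 libraries, so neither a level nor a change can be given beyond the limit of 3 counts per library. CDKN2A, the gene of p16 and ARF, was likewise at 0 throughout. In the order of their start positions, both genes belonged to 37 consecutive genes at 0 counts, of which 21 were protein-coding, with ends between 20786927 and 22121097 on chromosome 9, and these neighbours were looked at after the values had been seen. The interval is not empty of counts: the pseudogene UBA52P6, next after CDKN2B in that order, had 1 count in TAZ library 1. The consecutive genes included MTAP and KLHL9, a gene of methionine salvage and an adaptor of a ubiquitin ligase that most cells express, as well as the type I interferon genes. Of all genes in the table, 40.8% were at 0 in every library, so a silent gene alone is common. FOCAD, which starts before the run and reaches into it, had 168, 183 and 124 counts with control-siRNA and 194, 135 and 152 counts with TAZ-siRNA. DNA was not measured, so a lost locus and a silent one cannot be told apart from these counts.

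GADD45A (chr1:67685201-67688334), an arrest and repair factor induced by DNA damage, fell from 61.1, 58.7 and 58.4 CPM with control-siRNA to 37.1, 30.7 and 47.6 CPM with TAZ-siRNA. The 3 controls lay close together and all TAZ-siRNA libraries lay below them, with TAZ library 3 the nearest. The gene fell by 0.63 ± 0.14 on the log2 scale (95% interval -0.95 to -0.31), with an adjusted p of 0.0159 by edgeR. The call held in 11 of 13 alternative fits and was lost without TAZ library 1 (-0.60, adjusted p = 0.0739) and without control library 3 (-0.64, adjusted p = 0.0501), while the change stayed between -0.80 and -0.49 in the 6 fits that left out a library. Its main transcript NM_001924 went from 85.8 ± 2.75 to 54.2 ± 4.51 TPM, with no overlap.

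GADD45B (chr19:2476127-2478259, plus strand) had 60.9, 61.2 and 70.4 CPM with control-siRNA and 49.1, 36.2 and 73.7 CPM with TAZ-siRNA. TAZ libraries 1 and 2 lay below every control and TAZ library 3 above every control. The log2 fold change was -0.27 ± 0.28 (95% interval -0.99 to 0.44), with an adjusted p of 0.545 by edgeR. Without TAZ library 3 it was -0.58, with an adjusted p of 0.0658. The log2 ratio of GADD45A to GADD45B counts was 0.0053, -0.061 and -0.27 with control-siRNA and -0.41, -0.24 and -0.63 with TAZ-siRNA. The ratios overlapped between the groups, and their means differed by -0.32 (p = 0.2, 2-sided exact permutation test), so these data do not show that GADD45A and GADD45B responded differently.

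SESN1 (chr6:108984309-109094846, minus strand), which encodes a stress-induced inhibitor of mTORC1 signalling, rose from 7.56, 6.81 and 6.61 CPM with control-siRNA to 10.2, 9.61 and 9.08 CPM with TAZ-siRNA. Every TAZ-siRNA library lay above every control. The rise of 0.46 ± 0.091 on the log2 scale (95% interval 0.26 to 0.66) had an adjusted p of 0.00572 by edgeR and was called in all 6 fits that left out a library. It was not called by limma on log2(FPKM + 1) (0.19, adjusted p = 0.113) or on log2(FPKM + 0.1) (0.30), and the cause was not tested. The transcript from the distal start, NM_014454, had 2.12, 2.17 and 1.95 TPM against 4.04, 3.18 and 3.03 TPM. The 2 transcripts from internal starts summed to 1.70, 0.999 and 1.08 TPM against 0.281, 1.51 and 0.830 TPM, with overlap, and the GGAATG letters shown above lie before the internal start.

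MDM2 (chr12:68808149-68850686, plus strand), which encodes the ubiquitin ligase that degrades p53, had 105, 101 and 93.8 CPM with control-siRNA and 119, 120 and 98.8 CPM with TAZ-siRNA. TAZ libraries 1 and 2 lay above every control and TAZ library 3 among them. The log2 fold change of 0.18 ± 0.077 (95% interval 0.0069 to 0.35) had an adjusted p of 0.126 by edgeR. Without TAZ library 3 it was 0.27, with an adjusted p of 6.1e-04 by edgeR, in a fit that called 33.7% of all genes. This was the only call among the 6 fits that left out a library, where the adjusted p reached 0.354. In all, MDM2 was called in 2 of 13 alternative fits. MDM2 has a constitutive promoter and a further promoter in the first intron that is known to respond to p53. Transcripts from the upstream start summed to 18.6, 25.0 and 22.9 TPM against 31.0, 27.0 and 19.3 TPM, and the 4 transcripts from the first intron to 6.17, 2.46 and 1.80 TPM against 3.78, 4.70 and 3.31 TPM. Both sets overlapped between the groups, and the intronic start carried 6.97 to 20.4% of the gene's TPM in the controls and 10.7 to 12.9% with TAZ-siRNA.

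**Figure D2:**
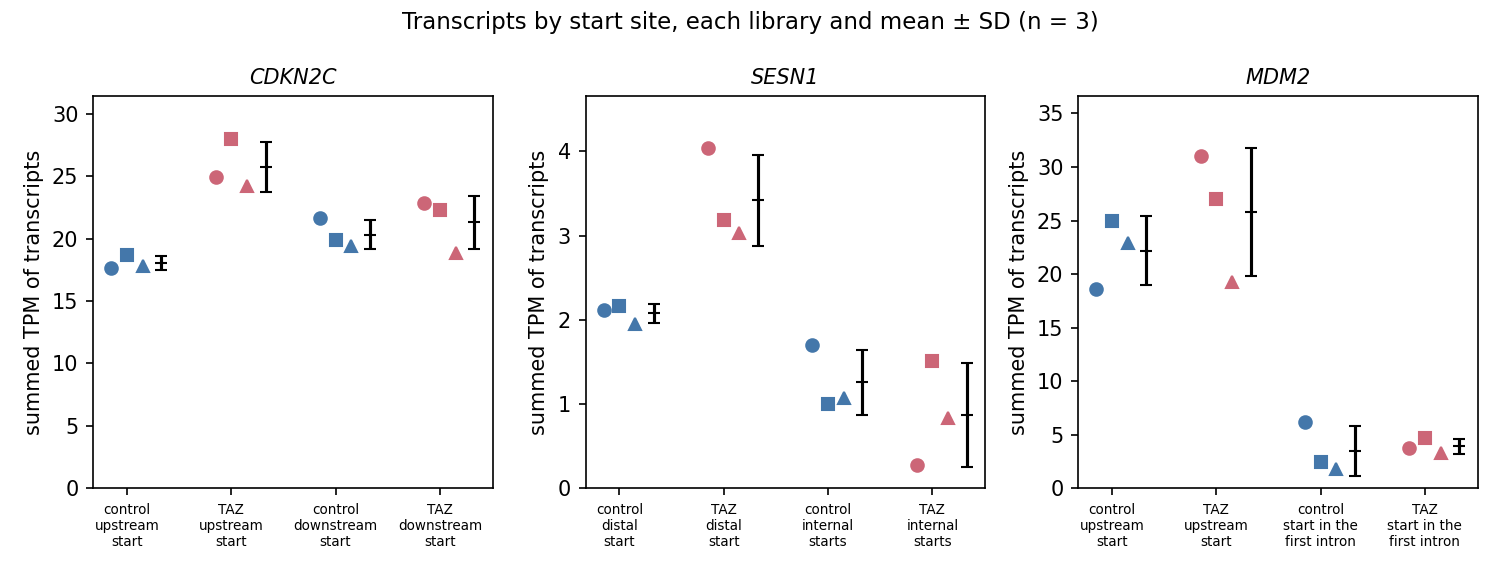
Summed TPM of the transcripts from each start site of CDKN2C, SESN1 and MDM2 on linear axes from 0, with each library as a point (control-siRNA blue, TAZ-siRNA red, the symbol giving the replicate) and the mean ± SD of 3 libraries as a bar; a further MDM2 start is not drawn. The groups separate for the upstream start of CDKN2C (18.1 ± 0.561 against 25.7 ± 2.01 TPM) and the distal start of SESN1 (2.08 ± 0.115 against 3.42 ± 0.544 TPM) and overlap for the other starts shown.

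The spread within the TAZ-siRNA group was not the same in all genes. CDKN1A, CDKN1C, GADD45A and GADD45B were each lowest in TAZ library 2 and highest in TAZ library 3, with a highest to lowest ratio of CPM of 1.64, 1.27, 1.55 and 2.04. CDKN1B and MDM2 were highest in library 2 and lowest in library 3, with ratios of 1.27 and 1.22. Between control libraries the ratios were 1.01 to 1.16 in all 8 genes. SESN1 and CDKN2C had the smallest ratios in the TAZ-siRNA group, 1.12 and 1.09. In their own controls these were 1.14 and 1.01, so CDKN2C was less even after TAZ knockdown. TAZ library 2 had the fewest counts and TAZ library 3 lay apart over all genes, and their part in this order was not tested.

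The closest relatives of these genes were described from a list of 8, of which 7 were tested and 5 were called (3 higher and 2 lower, 71.4% against 22.1% of all genes), and the median log2 fold change was 0.34. This list and those below were chosen with earlier results of these data known. No difference of their shares from that of all genes is claimed. CDKN2D, the INK4 gene of p19, rose from 15.4, 15.7 and 18.3 CPM to 24.5, 25.7 and 26.2 CPM (log2 fold change 0.63 ± 0.077, adjusted p = 4.9e-04 by edgeR). Both INK4 genes with counts in these cells therefore rose. The other sestrins rose as SESN1 did: SESN2, which binds GATOR2 when leucine is lacking, went from 63.0, 59.7 and 56.9 CPM to 78.9, 79.2 and 83.1 CPM (0.42 ± 0.053, adjusted p = 5.4e-04 by edgeR). SESN3, a FOXO target, went from 11.1, 9.71 and 9.14 CPM to 17.3, 16.4 and 13.1 CPM (0.65 ± 0.11, adjusted p = 0.00295 by edgeR). CDKN3, a phosphatase that acts on CDK2 and peaks in dividing cells, fell by 0.26 ± 0.054 (adjusted p = 0.00672 by edgeR). These 4 genes were called in all 13 alternative fits. GADD45GIP1, a GADD45-binding protein of the mitochondrial ribosome, fell by 0.20 ± 0.062 (adjusted p = 0.0440 by edgeR), and its call was lost in every fit that left out a library except the one without TAZ library 3, with an adjusted p of up to 0.169. GADD45G (0.34, 95% interval -0.49 to 1.18) and MDM4, a relative of MDM2 that also restrains p53 (-0.14, 95% interval -0.26 to -0.017), did not pass.

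**Figure D3:**
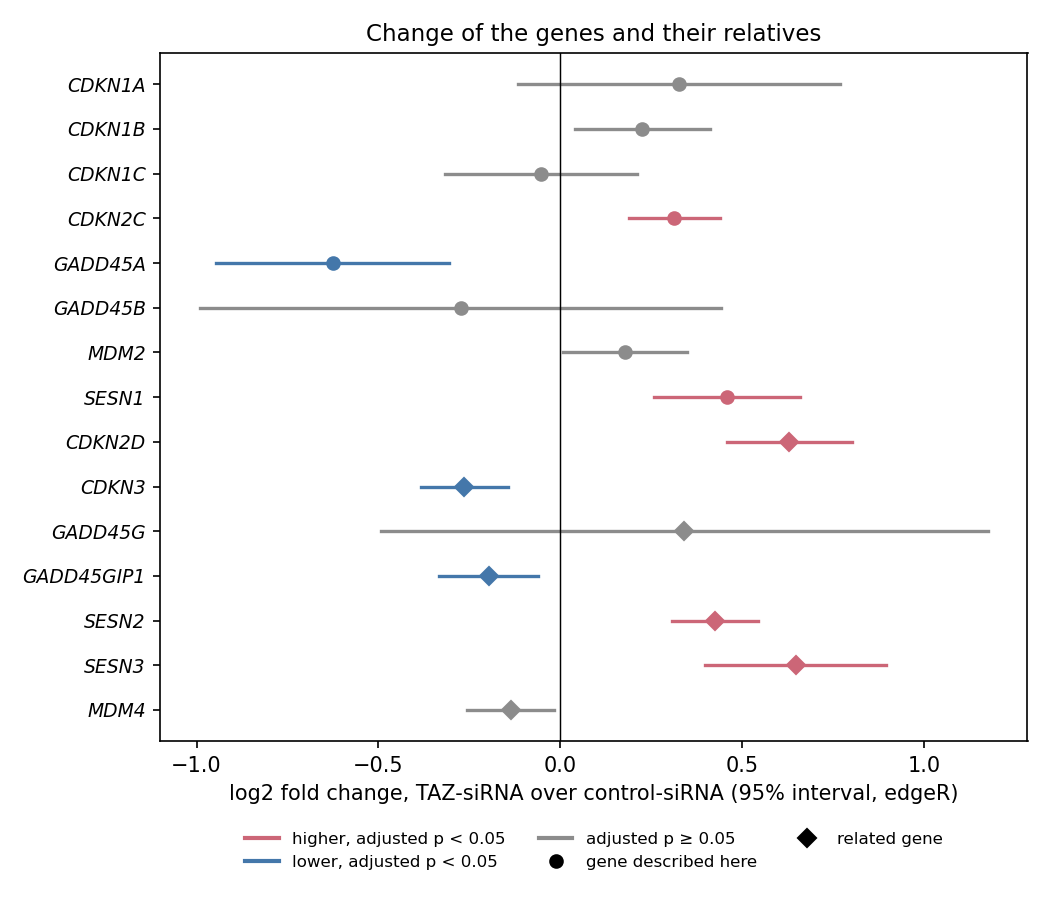
Log2 fold change of TAZ-siRNA over control-siRNA with the 95% interval from edgeR for the 8 tested genes (circles) and 7 relatives (diamonds), red where higher and blue where lower at an adjusted p under 0.05, grey otherwise. SESN1, SESN2 and SESN3 lie between 0.42 and 0.65 and the INK4 genes CDKN2C and CDKN2D at 0.31 and 0.63, while GADD45A lies at -0.63 and the CIP/KIP intervals are grey.

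Among 13 relatives and regulators of p53, all tested, 3 were called (23.1%, against 22.1% of all genes) and all 3 were higher, with a median of 0.097. HIPK2, a kinase that phosphorylates p53, rose by 0.29 (adjusted p = 0.0144 by edgeR) and COP1, a ubiquitin ligase for p53, rose by 0.23 (adjusted p = 0.0230 by edgeR). Both calls were lost without TAZ library 1 and without control library 3, with adjusted p of 0.0697 to 0.0816, HIPK2 also lost its call without control library 1 (adjusted p = 0.0598) and COP1 without control library 2 (adjusted p = 0.118), so that 0 to 4 of the 13 genes were called by edgeR when a library was left out, against 4 at an unadjusted p under 0.05 in all libraries and 4 by DESeq2.

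Of 30 further p53 target genes, 28 were tested and 6 were called (21.4%, close to the 22.1% of all genes), 3 higher and 3 lower, and their median was 0.042. The apoptosis gene PMAIP1 rose from 201, 197 and 198 CPM to 272, 250 and 283 CPM (0.43 ± 0.057, adjusted p = 6.5e-04 by edgeR), the DNA repair gene XPC rose by 0.38 (adjusted p = 0.00487) and PPM1D, a phosphatase that switches the p53 response off, by 0.31 (adjusted p = 0.00402). These were called in all fits that left out a library. The kinases PLK2 (-0.51, adjusted p = 0.0419) and PLK3 (-0.35, adjusted p = 0.0204) and the death receptor TNFRSF10B (-0.22, adjusted p = 0.0440) fell by edgeR. PLK2 lost its call without any of the controls or TAZ library 1, PLK3 without control library 2 or TAZ library 2, and TNFRSF10B without any library but TAZ 3, with adjusted p of 0.0624 to 0.143. The count of called genes was 3 without control library 2 and 11 without TAZ library 3, fits in which 11.2% and 33.7% of all genes were called.

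The targets of the inhibitors were read from a list of 15 G1 genes. Of 14 tested, 8 were called (57.1%, against 22.1% of all genes), 2 higher and 6 lower (10.2% of all genes were lower), with a median of -0.13. CDK4, bound by the INK4 proteins, fell from 171, 175 and 177 CPM to 140, 137 and 154 CPM (-0.28 ± 0.053, adjusted p = 0.00458 by edgeR), and CDK6 fell by 0.33 ± 0.063 (adjusted p = 0.00486). CKS1B, a CDK subunit that helps SKP2 recognise p27, fell by 0.28 (adjusted p = 0.00885), and CDK2, RB1 and RBL2 were the other genes called lower. CCND3, a D-type cyclin (0.27, adjusted p = 0.00880), and SKP2 (0.26, adjusted p = 0.0436) rose by edgeR. SKP2 lost its call without any library but TAZ 3 (adjusted p up to 0.157), CKS1B without control library 3 or TAZ library 1 (adjusted p up to 0.0508), and 5 genes were called without control library 2. The mRNAs of CDK4 and CDK6 were thus lower in the same bulk libraries in which CDKN2C and CDKN2D were higher.

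GADD45 proteins act on the stress kinases, and of 15 partners and kinases of that cascade, all tested, 6 were called (40%, against 22.1% of all genes), 3 higher and 3 lower, with a median of 0.0087. The MAP kinase kinase kinase MAP3K5, also called ASK1, rose by 0.75 ± 0.11 (adjusted p = 0.00139 by edgeR), from 13.5 ± 1.37 to 22.8 ± 3.32 CPM, and MAP2K4 by 0.39 ± 0.053 (adjusted p = 8.2e-04). MAP3K4, the direct partner of GADD45 proteins, rose by 0.39 (adjusted p = 0.00912 by edgeR) and missed the threshold without TAZ library 1 (adjusted p = 0.0521). MAPK11, a p38 kinase, fell by 0.56 (adjusted p = 0.0256), and CDK1 and CCNB1, the mitotic pair that GADD45 proteins bind, fell by 0.19 (adjusted p = 0.0242) and 0.15 (adjusted p = 0.0278) by edgeR. Those 3 falls were lost without control library 1 and without control library 2 (adjusted p of 0.0833 to 0.114) and in part without other libraries, and 3 genes in all were called without control library 1, control library 2 or TAZ library 1.

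Sestrins signal through the GATOR complexes to the Rag GTPases, which recruit mTORC1 to the lysosome. In a list of 14 such genes, 13 were in the table under that symbol and tested, and 5 were called (38.5%, against 22.1% of all genes), 3 higher and 2 lower, with a median of 0.038. RRAGB rose by 0.64 ± 0.14 (adjusted p = 0.00808 by edgeR), from 2.56 ± 0.168 to 3.98 ± 0.505 CPM, RRAGC by 0.19 (adjusted p = 0.0425) and RRAGD by 0.18 (adjusted p = 0.0349). The GATOR1 subunits NPRL2 (-0.32, adjusted p = 0.0137) and NPRL3 (-0.32, adjusted p = 0.00218), which switch the Rag GTPases off, fell by edgeR. RRAGC and RRAGD lost their calls without any library but TAZ 3 (adjusted p up to 0.174) and NPRL2 without control library 2, control library 3 or TAZ library 1 (adjusted p up to 0.0677). The count was 2 or 3 without any library but TAZ 3 and 7 without TAZ library 3, while the share over all genes was 11.2 to 15.3% and 33.7%.

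**Figure D4:**
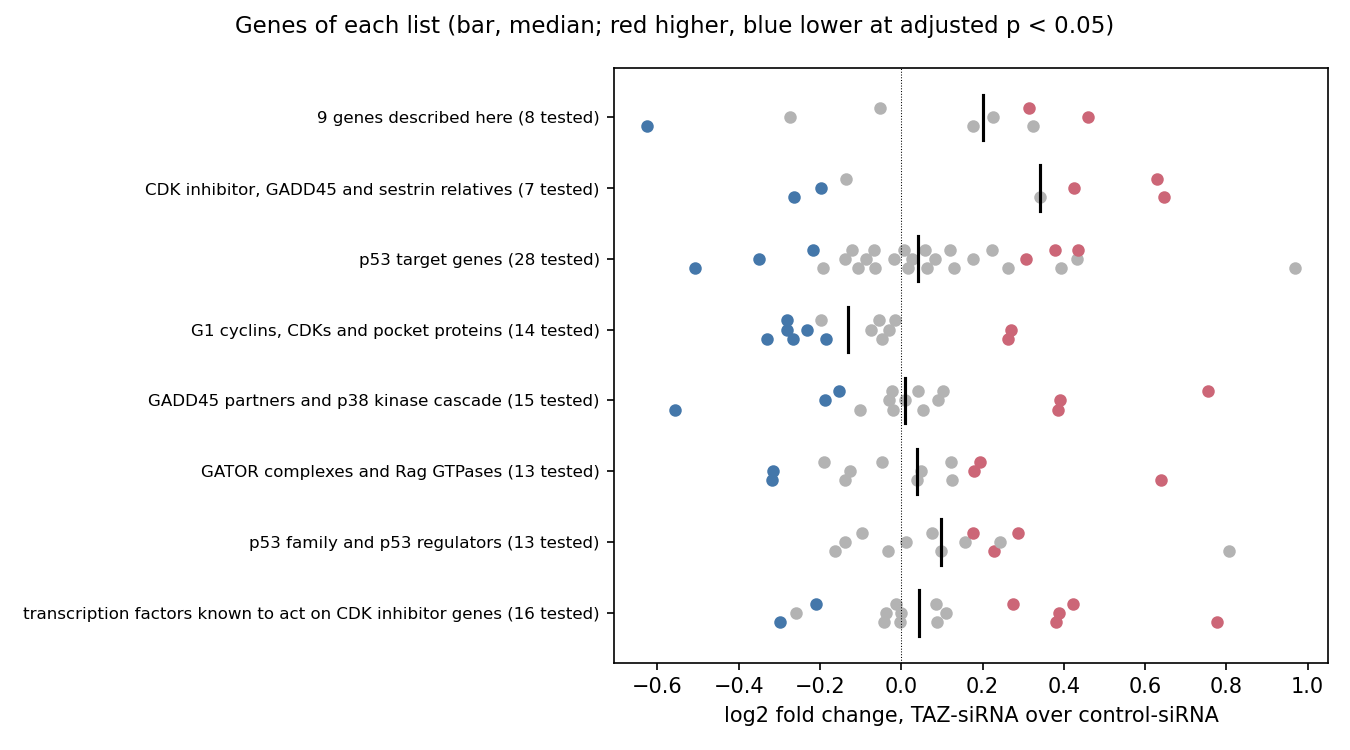
Log2 fold change of TAZ-siRNA over control-siRNA for each tested gene of the 9 genes described and of 7 lists of related genes, red where higher and blue where lower at an adjusted p under 0.05 by edgeR, with the median of each list as a bar. Medians lie from -0.13 in the G1 list to 0.34 in the relatives, and the 28 p53 targets spread to both sides of 0.

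The genes whose pattern over the 6 libraries was most like that of a called gene were found by Pearson's r of log2 CPM among 9938 genes of at least 10 CPM. For CDKN2C, which had the smallest adjusted p of the genes that rose, these were NELL2 (r = 0.999), VPS26C (0.997) and REEP2 (0.997). NELL2 rose from 11.6 ± 0.133 to 16.2 ± 0.947 CPM and, like CDKN2C, was highest in TAZ library 2. For GADD45A they were GART (0.997), SSR1 (0.996) and TRMT11 (0.995), all lowest in TAZ library 2 and nearest the controls in TAZ library 3, with GART at 266 ± 1.55 against 218 ± 19.2 CPM. The points share the 2 groups, so any gene that differs between them correlates, and r was over 0.95 for 445 genes (4.48%) with CDKN2C and 370 genes (3.72%) with GADD45A.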

How the data were processed

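RNA from MDA-MB-231 cells (3 control-siRNA and 3 TAZ-siRNA preparations) was sequenced as stranded paired-end libraries. The authors trimmed the reads, mapped them with HISAT2 to GRCh38 and quantified RefSeq transcripts with StringTie. The submitters' processing notes also list Bowtie 0.12.2, with no role given, and the strand setting is not given in the sources used here. For genes and transcripts alike, the authors deposited an estimated count, a whole number taken from read coverage. The authors also deposited FPKM, scaled for length and depth, and TPM, scaled for length to a total shared by all libraries. Replicates were numbered as in the deposited columns.

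Gene counts were compared with edgeR 4.0.16 (R 4.3.3): TMM factors (0.978 to 1.02), filterByExpr with 10 as its minimum count, a quasi-likelihood test with robust dispersions, and Benjamini-Hochberg adjustment over the 16966 genes tested. The biological coefficient of variation was 8.04%. Counts of replicates differed by more than sampling noise (chi-square per degree of freedom 6.38 to 38.2). Alternatives were DESeq2 1.42.0, upper-quartile factors, other filters, a replicate block, limma 3.58.1 on log2(FPKM + pseudocount), another threshold, and leaving out each library. The fits were tested on simulated data.

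The genes and lists were chosen with earlier results of these data known. Named from each list were up to 3 rises and 3 falls, the largest with an adjusted p under 0.05 and at least 1 CPM. Also named by rule were WWTR1 and, for the called gene with the smallest adjusted p in each direction, the 3 genes of most similar pattern. CDK2, RB1, RBL2, FOXO1, FOXO3, GADD45G, MDM4, GDF15, CD68, KRT19, GATA3 and the neighbours of CDKN2B were named after their values were seen. So were the markers VIM, CAV1, EGFR, FN1, PDGFRB, COL1A1, DCN, COL1A2 and LUM. A planned gene is not reported here and was left out of its list.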

Additional observations from a re-analysis of the deposited data

How the results depend on the processing

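Of the genes described, CDKN2C kept its direction and call under all 13 alternative fits, SESN1 under 11 and GADD45A under 11. Among the 9 genes, 2 to 5 were called when each library was left out in turn (5 without TAZ library 3, where 33.7% of all genes were called) and 5 with the replicate block (30.2% of all genes), in which CDKN1B (adjusted p = 0.0210) and MDM2 (adjusted p = 0.0133) were added. Calls over all genes numbered 1720 at an adjusted p under 0.01 and 1937 to 5928 with a library left out, against 3749. The ratio of CDKN1A to CDKN1B differed by -0.16 to 0.36 with a library left out and so turned direction, and that of GADD45A to GADD45B by -0.41 to -0.21. The log2 fold change of CDKN1C ranged from -0.17 to 0.0069 with a library left out, and turned to 0.0036 without TAZ library 1 and 0.0069 without TAZ library 2.

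With a library left out, the called genes were 4 to 5 of the relatives, 3 to 11 of the p53 targets, 5 to 9 of the G1 genes, 3 to 7 of the GADD45 partners, 2 to 7 of the GATOR and Rag genes, 0 to 4 of the p53 relatives and regulators and 4 to 8 of the transcription factors, in fits that called 11.2 to 33.7% of all genes. The replicate block called 10 p53 targets and 5 p53 relatives and regulators. At an adjusted p under 0.01 by edgeR there were 3 p53 targets, 3 GADD45 partners, 2 GATOR and Rag genes and 0 p53 relatives and regulators. By limma on log2(FPKM + 1) there were 3 GADD45 partners, 3 GATOR and Rag genes and 0 p53 relatives and regulators, by limma on log2(FPKM + 0.1) 3 GATOR and Rag genes and 0 p53 relatives and regulators, and with no filter beyond 1 count 3 GATOR and Rag genes. The causes of these shifts were not tested. Of the 35 genes that the rule took from the lists, 17 were called in all 13 alternatives and 0 changed direction by edgeR, DESeq2 or limma.

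Whether the replicate numbers pair the samples is not settled. Deviations of libraries with the same number correlated at -0.017, 0.0086 and 0.070, and those with different numbers at -0.095 to 0.10. With 3 libraries per group this cannot exclude a pairing, and the block raised the calls over all genes to 5122. Depth limits CDKN2B and CDKN2A, for which 0 counts allow up to 3 counts per library.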

Other observations

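Of 17 listed transcription factors known to act on CDK inhibitor genes, 16 were tested and 7 were called by edgeR (43.8%, against 22.1% of all genes), 5 higher and 2 lower (11.9% and 10.2% of all genes), and their median log2 fold change was 0.042. EGR1, an immediate-early factor, rose from 388, 371 and 375 CPM to 647, 675 and 620 CPM (0.78 ± 0.057, adjusted p = 6.1e-05 by edgeR). KLF4, an activator of CDKN1A, rose by 0.39 ± 0.057 (adjusted p = 0.00120 by edgeR). FOXO4 rose by 0.42 ± 0.084 (adjusted p = 0.00597 by edgeR), and the FOXO factors FOXO1 (0.38, adjusted p = 0.0171 by edgeR) and FOXO3 (0.28, adjusted p = 0.00721 by edgeR), which also act on CDKN1B and sestrin genes, were higher as well. FOXO1 and FOXO3 were named after their values were seen, and the part of the FOXO factors in the results was not tested. MYC, a repressor of CDKN1A and CDKN2B, fell by 0.30 ± 0.066 (adjusted p = 0.00973 by edgeR), and KLF6, an activator of CDKN1A, fell by 0.21 ± 0.059 (adjusted p = 0.0292 by edgeR). EGR1, KLF4 and FOXO4 were called in all 13 alternative fits. MYC missed the threshold without control library 1 or TAZ library 1 (adjusted p of 0.0537 to 0.0555), KLF6 without control library 1, control library 2 or TAZ library 1 (adjusted p of 0.107 to 0.125), and 4 of the factors were called without TAZ library 1.

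The stress cytokine GDF15, a p53 target chosen after its values were seen, had 232, 259 and 291 CPM with control-siRNA and 437, 379 and 715 CPM with TAZ-siRNA. Its groups did not overlap, but TAZ library 3 lay far above the other libraries, and the log2 fold change of 0.97 ± 0.27 (95% interval 0.28 to 1.66) had an adjusted p of 0.0616 by edgeR. Without TAZ library 3 it was 0.65 with an adjusted p of 0.00259 by edgeR, without TAZ library 2 it was 1.15 with an adjusted p of 0.0284, and it also passed with DESeq2 (adjusted p = 0.00969). Like CDKN1A and GADD45B, it was highest in TAZ library 3 and, within its group, lowest in TAZ library 2.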
